A study of Ambystoma mexicanum with 12 samples.

Results

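Heat shock proteins, their DNAJ partners, the CCT chaperonin and the heat shock factors were followed across spinal cords with or without a miR-200a inhibitor and with or without injury. The members were every gene whose symbol begins with HSP90, HSPA, HSPB or HSF and a digit, DNAJA, DNAJB or DNAJC and a digit, or CCT and a digit from 2 to 8, together with HSPD1, HSPE1 and HSPH1. This rule found 80 of the 15091 genes in the deposited table. They were 14 HSP70 genes, 3 HSP90 genes, 5 small heat shock proteins, HSPH1 of the HSP110 type, 4 DNAJA, 12 DNAJB and 25 DNAJC genes, 8 CCT genes, HSPD1 and HSPE1 of the mitochondrial chaperonin, 3 heat shock factors, HSF2BP and 2 read-through names. HSF2BP binds a heat shock factor but is known for meiotic recombination, and HSPB11 is a component of intraflagellar transport, so neither is a chaperone in the strict sense.

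Chaperones bind proteins that are not yet folded or have lost their fold. DNAJ proteins, also called HSP40, bring clients to HSP70 and switch on its ATPase, HSP90 takes over clients such as kinases and receptors at a late stage, and the barrel-shaped chaperonins fold proteins inside a closed chamber, CCT in the cytosol and HSPD1 with its lid HSPE1 in mitochondria. Most members are made constantly, whereas a few, HSPA1A and DNAJB1 among them, are switched on within minutes to hours by heat, injury or handling through the factor HSF1.

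The study asked what miR-200a does in axolotl spinal cord regeneration. The 4 groups were uninjured spinal cords given a control inhibitor, cords given the control inhibitor and harvested 4 days post-injury (dpi), uninjured cords given the miR-200a inhibitor, and 4 dpi cords given the miR-200a inhibitor. All were axolotls, of 2 to 3 cm by the labels and larger by the methods of the study. The labels describe delivery into the central canal by pressure injection, while the methods of the study describe electroporated tissue, and the injury was removal of a short segment of cord. Each group had 3 libraries, and tissue of 10 animals was pooled for each. Libraries are named here by the number in their label: 1, 5 and S2 for uninjured control, 1, 5 and 6 for 4 dpi control, and 5, 6 and 7 for both inhibitor groups. The number does not tie an animal to several libraries, and p-values measure the spread between such pools. Values are in TPM, a transcript level corrected for length that sums to the same total in every library, so read depth is unknown. Gene names are those of human genes that the deposited table attaches to axolotl transcripts.

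Replicates correlated less in uninjured control (r = 0.820 to 0.908 across genes) than in the other groups (0.927 to 0.978). All 7 ependymoglial markers, GFAP and SOX2 among them, were above 0 in all 12 libraries. Their sum was 1030 to 4578 TPM in uninjured control and 982 to 2187 TPM in 4 dpi control. It was 1006 to 1573 TPM in uninjured inhibitor and 681 to 814 TPM in 4 dpi inhibitor. Oligodendrocyte markers summed to 831 to 10616, 1758 to 3504, 698 to 2370 and 975 to 1151 TPM in these 4 groups in that order. Skeletal muscle markers summed to 11277, 28313 and 45480 TPM in uninjured control libraries 1, 5 and S2, to 11067 to 19506 TPM in 4 dpi control and to 4822 to 9804 TPM in the 6 inhibitor libraries. Neuron markers summed to 12107 TPM in uninjured control library 1 and to 1158 to 4899 TPM in the others, and leukocyte markers to 153 to 244, 1088 to 1222, 768 to 903 and 1975 to 2296 TPM in the 4 groups in the order above. Most of the leukocyte sum was LYZ, at 77.9 to 89.5, 807 to 954, 614 to 718 and 1610 to 1906 TPM in the same order. Between uninjured control and uninjured inhibitor TYROBP, LCP1 and CYBB were also higher in every inhibitor library. PTPRC, CSF1R, CTSS and CORO1A overlapped, with CORO1A at 108, 21.2 and 5.47 TPM in control and 0, 6.35 and 0 TPM with the inhibitor. In bulk tissue fewer cells of a type and less RNA per cell cannot be told apart. The median gene was lower with the inhibitor by 0.997 on the log2 scale without injury and by 0.62 at 4 dpi. Each comparison was for that reason repeated after median-of-ratios scaling, which brings each library to a common centre and leaves these medians at −0.18 and −0.06. The median fold change of all genes was −0.09 for injury in control and 0.26 for injury under the inhibitor.

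The levels of the members spanned a wide range. Averaged over 12 libraries, 21 members were above 100 TPM and 18 below 5 TPM. The CCT subunits led the order, with CCT5 at 1211 TPM, CCT6A at 1053 TPM and CCT2 at 978 TPM. HSPE1 followed at 603 TPM, after CCT4 and CCT3, then HSP90AB1, the constitutive cytosolic HSP90, at 533 TPM. CCT5 was above CCT6A in 12 of 12 libraries, with ranges of 805 to 1473 and 663 to 1285 TPM. The order within a family was uneven. HSP90AB1 lay far above its stress-inducible sister HSP90AA1, which ran from 9.46 to 35.0 TPM, and held 49.9% to 79.1% of the HSP90 transcripts of each library. Among HSP70 genes HSPA4 led at 315 TPM, a nucleotide exchange factor of the HSP110 type in spite of its name. HSPA5, the endoplasmic reticulum (ER) HSP70 known as BiP, followed at 210 TPM and HSPA8, the constitutive cytosolic HSP70, at 182 TPM. All 80 members summed to 0.894% to 1.16% of the TPM of a library.

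Of the 80 members 68 were above 0 in all 12 libraries and 76 passed the filter for testing, at least 0.5 TPM in 3 libraries. The 4 others were CCT6B, seen in 4 dpi inhibitor library 7 alone at 6.69 TPM, DNAJB8 and HSF2BP, seen in uninjured control library S2 alone at 5.59 and 12.4 TPM, and the read-through name HSPB2-C11orf52, seen in 2 libraries. DNAJB8 and HSF2BP are known as testis genes in mammals. Library S2 also held the highest level of 16 of the 76 tested members, or 21.1%, against 10.9% of all tested genes. Those 16 included HSPA5, HSPA9, HSP90B1, HSPB1, HSPB8, HSPH1, DNAJB9 and DNAJC3. Library S2 is the library with the most muscle marker RNA, and the part of muscle in these levels was not tested.

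Injury alone called no member in the control animals. At 4 dpi against uninjured control 0 of 76 members passed the test, an adjusted p under 0.05 with an absolute log2 fold change above 1 in limma, where 0.935% of all 14764 tested genes passed. At an unadjusted p under 0.05 there were 13 members, or 17.1%, against 10.5% of all tested genes. The median member had a fold change of −0.00 on the log2(TPM + 0.5) scale, against −0.09 for all genes, and 38 members had a positive and 38 a negative fold change. The smallest adjusted p values belonged to HSPA14, CCT2 and DNAJB11. HSPA14, an HSP70 that works at the ribosome, was at 78.6, 84.2 and 87.9 TPM in uninjured control, against 98.1, 167 and 165 TPM at 4 dpi (log2 fold change 0.74, SE 0.21, adjusted p = 0.171). The groups did not overlap, although 4 dpi library 1 lay close to the uninjured range. CCT2 had 550 to 699 TPM before and 774, 1139 and 1033 TPM after injury (0.60, SE 0.18, adjusted p = 0.200). DNAJB11, which assists HSPA5 in the ER, had 74.9, 71.2 and 155 TPM before and 133, 190 and 177 TPM after injury (0.81, SE 0.28, adjusted p = 0.292), and library S2 lay inside the injured range. Without library S2 it passed at 1.17 (adjusted p = 0.0161), as did DNAJC15, a mitochondrial import protein, at 2.03 (adjusted p = 0.0311). These were 2 of 75 members in that fit, where 264 of 14687 tested genes were higher.

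All 7 tested CCT genes had positive fold changes with injury in control, from 0.22 to 0.60 with a median of 0.50, and none passed. In 4 dpi control 6 members lay above every uninjured control library, or 7.89% of 76 against 7.63% of all tested genes. They were HSPA14, CCT2, CCT7, CCT8, DNAJC1 and DNAJC30. DNAJB4 and HSPA2 lay below every uninjured control library, or 2.63% against 1.98%. Both are low genes, with DNAJB4 at 2.12 to 2.52 TPM before and 0.607 to 1.03 TPM after injury.

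The miR-200a inhibitor in uninjured cord gave calls in several families. On the deposited TPM, HSPE1 and the mitochondrial import protein DNAJC19 rose and 20 members fell, among them HSP90AB1, HSPA8, HSPA9, HSP90B1, HSPB8, HSF1 and the inducible HSPA1A, HSPA1B and DNAJB1. The 2 risen members were 2.63% of 76, against 3.32% of all tested genes, and the 20 fallen members 26.3%, against 42% of all tested genes. After scaling the calls were 20 higher (26.3%, background 15.1%) and 4 lower (5.26%, background 13.2%). Members called on both scales were HSPE1 and DNAJC19, higher, and HSP90AB1, DNAJB14, DNAJC5 and HSPA1A, lower. The share of all tested genes called on both scales is not given here, so their number is not read as a trait of the members. The median member was at −0.53 on the deposited scale and at 0.35 after scaling, against −0.997 and −0.18 for all genes tested. The sign of the median member thus turned with the scale, and the direction of a family is to be read with the scale it names. Relative to the median of all genes, the CCT median was at 1.48 on the deposited scale and 1.61 after scaling, the DNAJC median at 0.70 and 0.79, the DNAJB median at −0.18 and −0.064, the HSP70 median at −0.32 and −0.37 and the small heat shock protein median at 0.59 and 0.71.

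**Figure D1:**
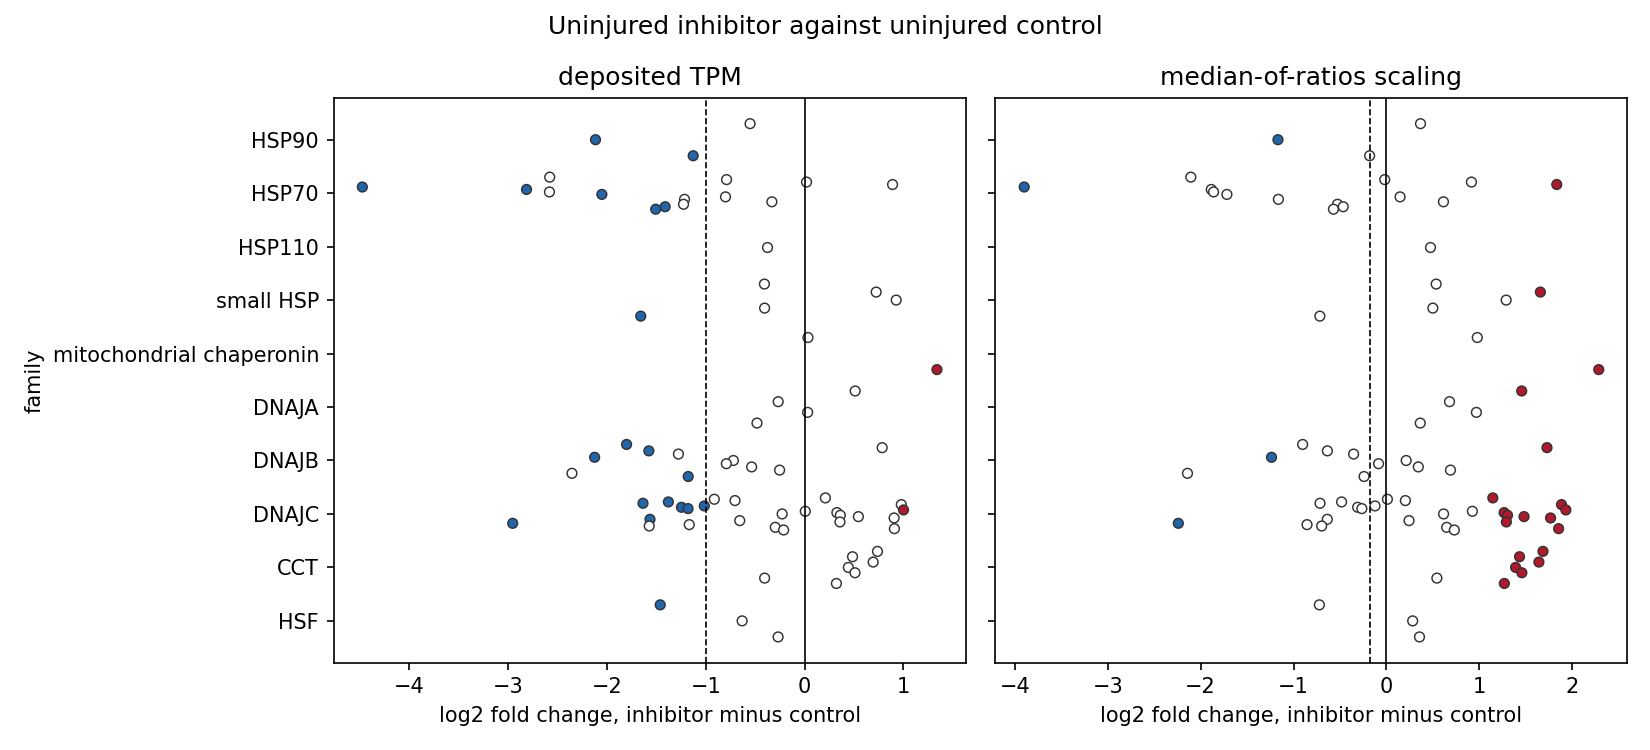
Log2 fold change of each tested member in uninjured inhibitor against uninjured control, by family, on the deposited TPM (left) and after median-of-ratios scaling (right). Each point is a gene, red if called higher, blue if called lower and white if not called, and the dashed line is the median of all tested genes, at −0.997 on the left and −0.18 on the right. Of 7 CCT genes 6 lie right of 0 on the left and 6 are called higher on the right, where 15.1% of all tested genes are.

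HSP90AB1 had the smallest adjusted p of the members in this comparison. It was at 1345, 668 and 889 TPM in uninjured control libraries 1, 5 and S2 and at 166, 291 and 203 TPM in uninjured inhibitor. Every inhibitor library was below every control library, and the mean dropped from 967 ± 345 to 220 ± 64.2 TPM (mean ± s.d., n = 3 libraries), 4.40-fold. The log2 fold change was −2.11 (SE 0.34, adjusted p = 0.00190 in limma) and −1.17 after scaling (SE 0.27, adjusted p = 0.00748). It was called in 16 of 17 alternatives, the exception being the replicate number as a block with scaling. HSP90B1, the ER HSP90 known as GRP94, was at 331, 195 and 566 TPM in control, against 151, 146 and 158 TPM with the inhibitor. It fell on the deposited scale (−1.13, SE 0.35, adjusted p = 0.0173) and was at −0.18 after scaling (adjusted p = 0.721). HSP90AA1 overlapped between the groups, at 23.7, 10.3 and 35.0 TPM and at 15.3, 18.3 and 9.46 TPM (−0.55, SE 0.43, adjusted p = 0.283, and 0.37 after scaling). The share of HSP90AB1 in the HSP90 transcripts, which no scaling changes, was 59.7% to 79.1% in uninjured control and 49.9% to 63.8% in uninjured inhibitor, so that these ranges overlapped.

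Of the constitutive HSP70 genes some fell on the deposited scale and none of HSPA8, HSPA9 and HSPA4 passed after scaling. HSPA8 was at 349, 171 and 311 TPM in control, against 78.3, 111 and 113 TPM with the inhibitor (−1.41, SE 0.29, adjusted p = 0.00343), and at −0.47 after scaling (adjusted p = 0.182). HSPA9, the mitochondrial HSP70 known as mortalin, was at 73.4, 39.5 and 135 TPM and at 21.0, 29.6 and 26.6 TPM (−1.51, SE 0.36, adjusted p = 0.00552), and at −0.57 after scaling (adjusted p = 0.264). Both had no overlap between the groups. HSPA4 was at 562, 363 and 275 TPM and at 201, 242 and 218 TPM (−0.80, SE 0.24, adjusted p = 0.0157), below the fold threshold, and its scaled value was 0.15. HSPA5 spread from 50.6 to 534 TPM among the control libraries alone, a 10.6-fold range that held all 3 inhibitor values of 102 to 168 TPM. Its fold change was −0.33 (SE 0.62, adjusted p = 0.664). Its direction was not stable, with 0.48 without library S2 (adjusted p = 0.401), 0.61 after scaling with all libraries (adjusted p = 0.479) and 0.90 with the replicate number as a block (adjusted p = 0.147). Library S2 stands alone in its block, so the block value does not draw on it either. With block and scaling together HSPA5 was called higher, at 1.73 (adjusted p = 0.0495), where 1467 of 14764 tested genes were. HSPA14 was higher in every inhibitor library, at 147, 150 and 170 TPM, against 78.6 to 87.9 TPM in control. It had a fold change of 0.89 (SE 0.21, adjusted p = 0.00582), short of the fold threshold, and was called higher after scaling at 1.83 (adjusted p = 0.00347).

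**Figure D2:**
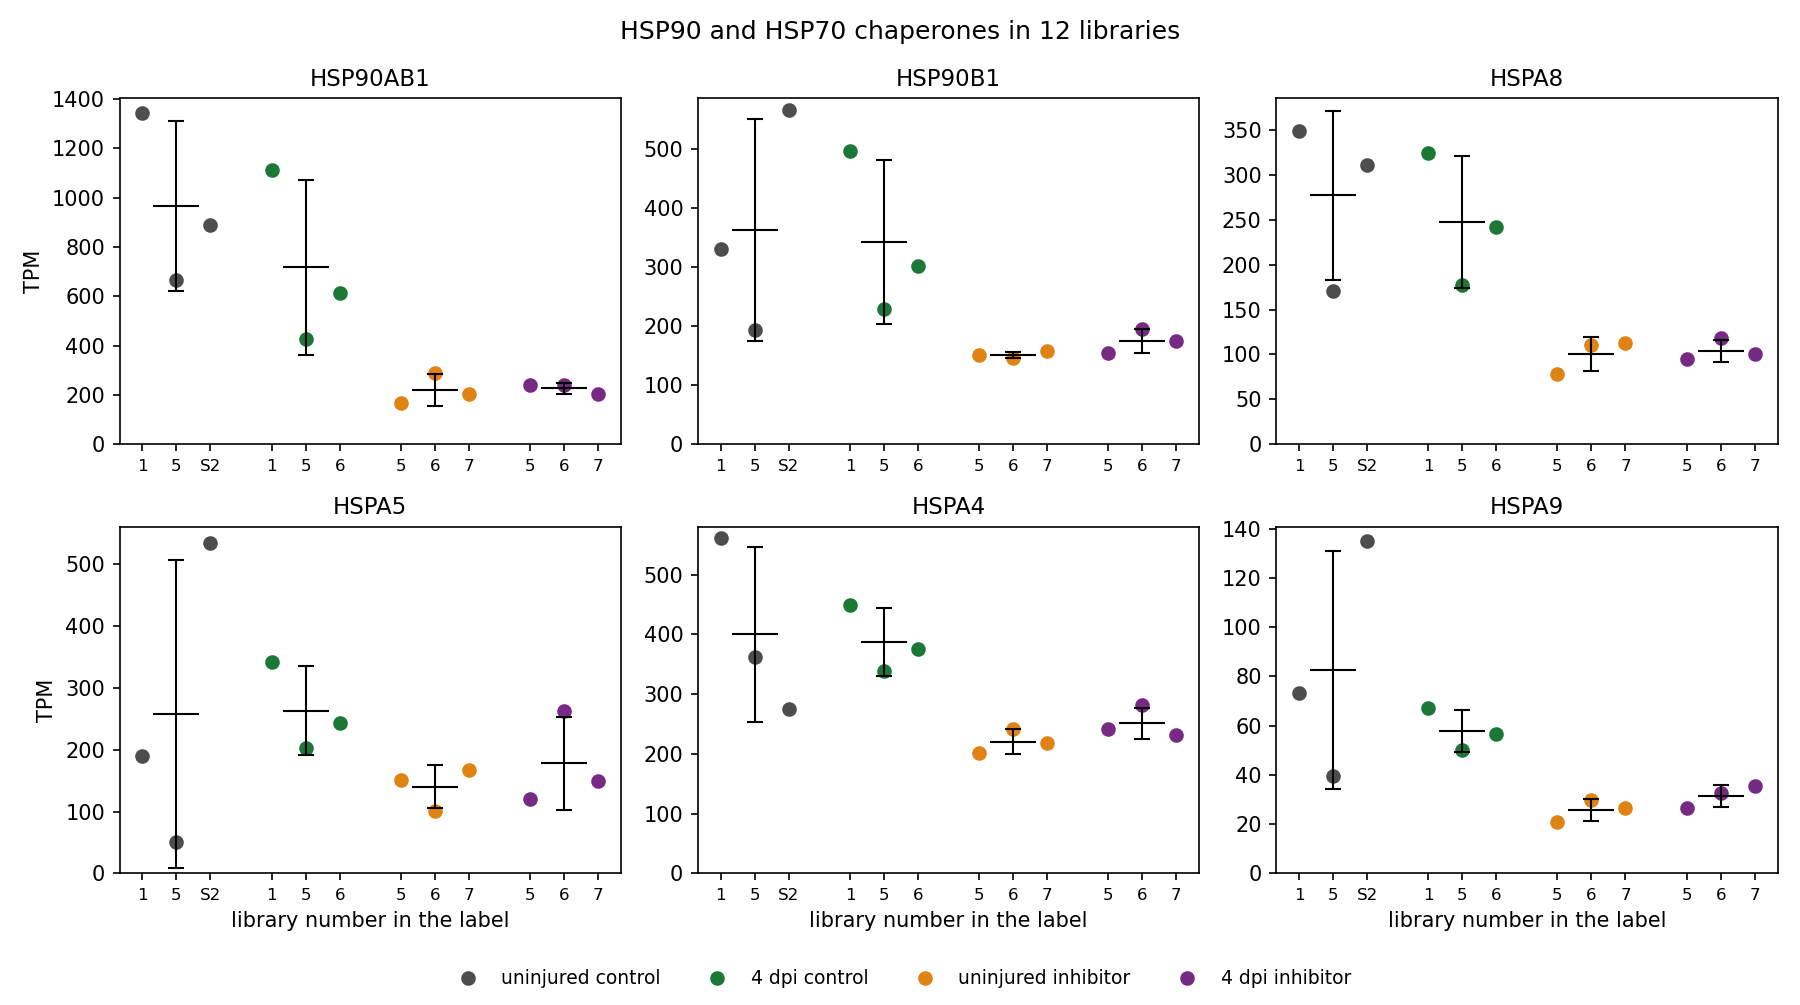
TPM of HSP90AB1, HSP90B1, HSPA8, HSPA5, HSPA4 and HSPA9 in the 12 libraries, a point per library with the group mean and s.d. as a bar with caps (n = 3 libraries a group). HSP90AB1 lies at 166 to 291 TPM in the 6 inhibitor libraries and at 427 to 1345 TPM in the 6 control libraries, while HSPA5 in uninjured control runs from 50.6 to 534 TPM.

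Both genes of the mitochondrial chaperonin were measured in all libraries, and the lid gene passed the test with the inhibitor in uninjured cord. HSPE1 was at 227, 280 and 426 TPM in uninjured control, against 766, 796 and 721 TPM in uninjured inhibitor, 2.45-fold higher in the mean. It rose on both scales (1.34, SE 0.26, adjusted p = 0.00285, and 2.29 after scaling, adjusted p = 0.00345) and was called in 17 of 17 alternatives. HSPD1, the barrel gene, was at 99.7, 85.3 and 176 TPM and at 99.6, 103 and 157 TPM (0.03, 95% confidence interval −0.65 to 0.72, adjusted p = 0.935) and at 0.98 after scaling (adjusted p = 0.0912). The ratio of HSPE1 to HSPD1 does not depend on scaling. It was 2.27, 3.28 and 2.43 in uninjured control, 2.43, 2.80 and 2.48 in 4 dpi control, 7.69, 7.75 and 4.59 in uninjured inhibitor and 9.85, 4.37 and 6.79 in 4 dpi inhibitor. All 6 inhibitor libraries lay above all 6 control libraries. The log2 ratio was higher with the inhibitor by 1.31 without injury and by 1.37 at 4 dpi (exact two-sided permutation test, p = 0.1 in each, the smallest that 3 against 3 libraries allow).

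**Figure D3:**
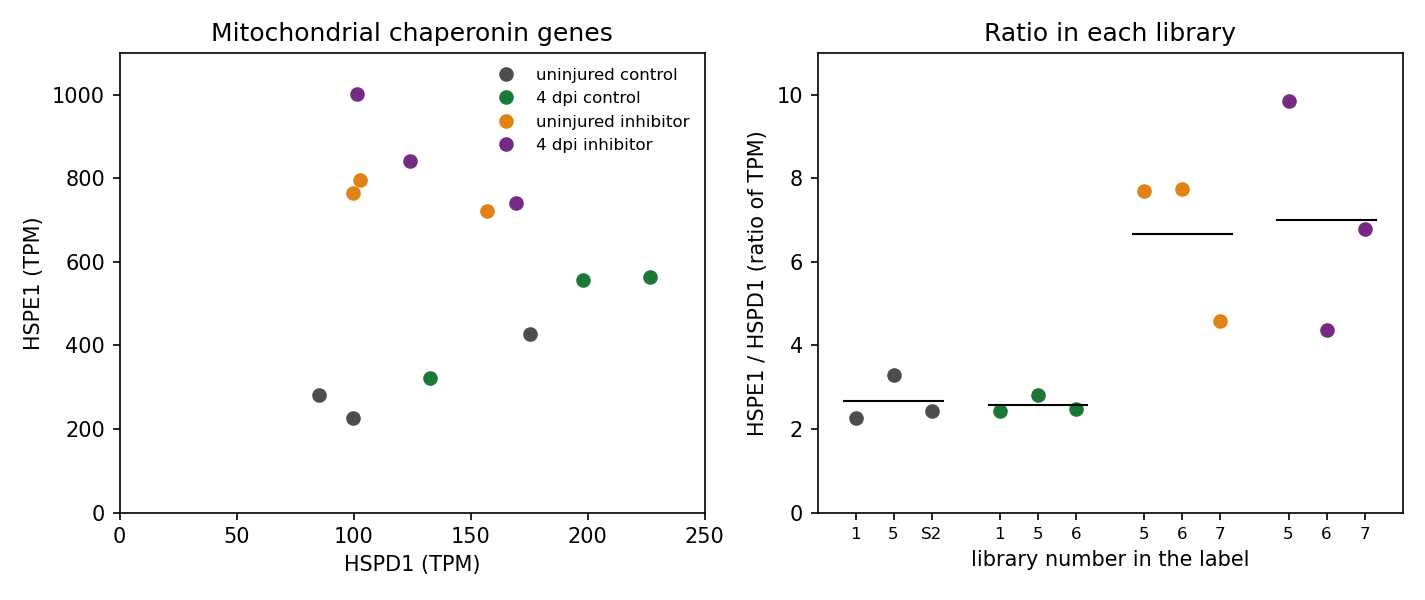
HSPE1 against HSPD1 in TPM, a point per library (left), and their ratio in each library with a line at the group mean (right). The ratio lies between 2.27 and 3.28 in control and between 4.37 and 9.85 in inhibitor libraries.

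The small heat shock proteins prevent other proteins from aggregating and do not use ATP. HSPB8, which acts with BAG3 in muscle and neurons, was at 63.1, 186 and 315 TPM in uninjured control, against 42.0, 49.3 and 55.9 TPM in uninjured inhibitor (−1.66, SE 0.43, adjusted p = 0.00805, and −0.72 after scaling, adjusted p = 0.322). The order of the uninjured control libraries was the same as that of their summed muscle markers. In uninjured inhibitor, library 6 had the largest muscle marker sum, 9804 TPM, but HSPB8 was highest in library 7. The part of muscle was not tested. HSPB1, also called HSP27, was at 53.2, 103 and 291 TPM and at 120, 52.6 and 108 TPM, with overlap (−0.41, SE 0.48, adjusted p = 0.483). It too was highest in library S2, and its fold change was 0.25 without that library. HSPB11, the transport protein, was at 35.1, 26.3 and 11.8 TPM and at 43.1, 34.3 and 34.5 TPM (0.72, SE 0.33, adjusted p = 0.0783, and called higher after scaling at 1.66). HSPB3 stayed under 2 TPM in every library. HSPB7, a muscle chaperone, was at 7.43, 34.6 and 19.9 TPM in control libraries 1, 5 and S2, which is not the order of their muscle markers. With the inhibitor it ran from 8.64 to 19.6 TPM.

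The CCT ring is built from 8 different subunits, of which 7 were tested here as members, and TCP1 is the remaining subunit. Of the 7 genes 6 had positive fold changes with the inhibitor on the deposited scale (median 0.49, range −0.40 to 0.74). None passed the test there, where 3.32% of all tested genes were called higher. After scaling the same 6 were called higher, where 15.1% of all tested genes were, and the median of all 7 was 1.43. CCT5 was at 965, 1115 and 805 TPM in uninjured control, against 1248, 1290 and 1353 TPM in uninjured inhibitor (0.44, SE 0.19, adjusted p = 0.0578, and 1.39 after scaling, adjusted p = 0.00802). CCT2 was at 675, 699 and 550 TPM and at 1043, 1067 and 1082 TPM (0.74, SE 0.18, adjusted p = 0.00651, under the fold threshold, and 1.69 after scaling, adjusted p = 0.00348). The groups did not overlap for either gene. CCT7 was the exception, at 498, 499 and 409 TPM and at 351, 304 and 410 TPM. As a share of the summed TPM of the 7 genes, which scaling leaves as it is, CCT7 held 10.2% to 11.5% in uninjured control, 8.12% to 10.8% in 4 dpi control, 5.06% to 6.82% in uninjured inhibitor and 4.02% to 7.55% in 4 dpi inhibitor. The inhibitor libraries all lay below the control libraries. CCT2 had 14.3% to 15.6% in uninjured control and 17.8% to 18.4% in uninjured inhibitor, and CCT4 had 12.1% to 13.3% in 4 dpi control and 15.0% to 17.1% in 4 dpi inhibitor. In uninjured cord the share of CCT5 was at 21.8% to 22.8% in control and 21.5% to 22.5% with the inhibitor. The shares of CCT7, CCT2 and CCT4 were looked at after their values had been seen and were given no test.

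**Figure D4:**
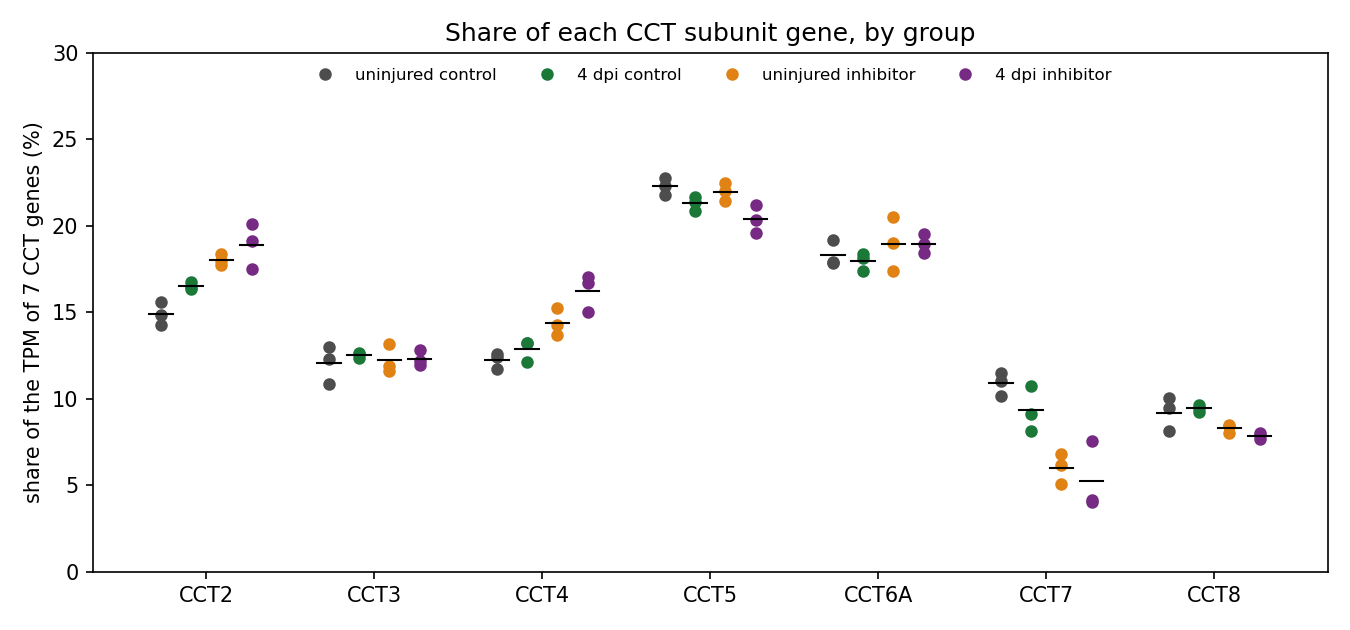
Share of each of 7 CCT subunit genes in their summed TPM, a point per library and a line at the group mean (n = 3 libraries a group). CCT7 lies at 8.12% to 11.5% in the 6 control libraries and at 4.02% to 7.55% in the 6 inhibitor libraries, while CCT5 lies at 19.6% to 22.8% in all 12.

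The DNAJ genes, 40 of them tested, went both ways. On the deposited scale 4 of 11 DNAJB genes fell and none rose, and 7 of 25 DNAJC genes fell and 1 rose. Of the 4 DNAJA genes 0 passed. Among all tested genes 42% fell and 3.32% rose. After scaling 1 DNAJB gene was lower and 1 higher, 1 DNAJC gene was lower and 9 higher, and of the DNAJA genes DNAJA1 was higher. Among all tested genes 13.2% were lower and 15.1% higher after scaling. DNAJC19 was at 21.4, 19.5 and 20.6 TPM in uninjured control, against 44.4, 37.3 and 43.1 TPM in uninjured inhibitor, 2.03-fold higher in the mean. It was narrow in both groups and was called in 12 of 17 alternatives, its deposited fold change of 1.00 lying just past the threshold. DNAJC8, found with the spliceosome, was at 114, 128 and 95 TPM and at 210, 210 and 209 TPM (0.91, SE 0.21, adjusted p = 0.00527, and called higher after scaling at 1.85). DNAJA1, a cytosolic partner of HSPA8, was at 128, 118 and 81.7 TPM and at 156, 143 and 160 TPM (0.51, SE 0.20, adjusted p = 0.0484, and called higher after scaling at 1.46). DNAJA2, its close relative, had 170 to 257 TPM and 162 to 182 TPM (−0.27, adjusted p = 0.233, and 0.68 after scaling), so that its direction turned with the scale. DNAJC28, a little-studied mitochondrial protein, was at 2.69 to 5.05 TPM and at 5.23 to 8.31 TPM (0.91, adjusted p = 0.0669, and called higher after scaling at 1.77).

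Several of the fallen DNAJ genes encode ER proteins. DNAJB12, an ER membrane protein that works with HSPA8 in protein degradation, was at 127, 88.1 and 90.0 TPM in uninjured control, against 37.4, 28.4 and 34.7 TPM in uninjured inhibitor (−1.58, SE 0.30, adjusted p = 0.00253, and −0.64 after scaling, adjusted p = 0.0569). Its relative DNAJB14 was at 37.3, 18.9 and 13.4 TPM and at 4.40, 7.99 and 2.46 TPM and was called lower on both scales. DNAJC14, a membrane protein that is not in the ER count given here, was at 50.4, 26.4 and 25.0 TPM and at 7.85, 12.9 and 9.97 TPM (−1.63, SE 0.34, adjusted p = 0.00339, and −0.71 after scaling, adjusted p = 0.0231). DNAJC3, which helps HSPA5 in the ER lumen, was at 44.0, 31.7 and 60.7 TPM and at 16.0, 14.8 and 12.9 TPM (−1.56, SE 0.33, adjusted p = 0.00359, and −0.64 after scaling, adjusted p = 0.119). In these 4 genes every inhibitor library lay below every control library. DNAJB11 in the same lumen had 181, 143 and 165 TPM among the inhibitor libraries against 71.2 to 155 TPM in control (0.78, SE 0.28, adjusted p = 0.0319, and called higher after scaling at 1.73). Of 13 members placed in the ER, 7 (53.8%) were called lower and 0 higher on the deposited scale, where 42% and 3.32% of all genes were, and 1 (7.69%) lower and 3 (23.1%) higher after scaling, where 13.2% and 15.1% of all genes were. Relative to all genes the median of these 13 was at −0.017 and, after scaling, at 0.054. Of 10 members of mitochondria, 1 (10%) was called lower and 2 (20%) higher, and after scaling 0 lower and 5 (50%) higher, with a median relative to all genes of 1.19 and 1.31.

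DNAJ genes of synapses and clathrin coats spread widely in uninjured control. DNAJC5, the cysteine string protein of synaptic vesicles, was at 29.9, 7.33 and 4.11 TPM in uninjured control libraries 1, 5 and S2 and at 0.422, 2.40 and 0.384 TPM in uninjured inhibitor. It was called lower on both scales, and the order of its control libraries was that of their summed neuron markers of 12107, 4204 and 2224 TPM. DNAJC6, the neuronal auxilin that uncoats clathrin vesicles, had the same order, at 50.0, 10.7 and 3.48 TPM, as did HSPA12A, an atypical HSP70 of brain, at 28.0, 2.98 and 0.153 TPM. DNAJC5B, the other DNAJ gene placed at synapses, did not follow this order, at 1.37, 0 and 3.34 TPM. In uninjured inhibitor, library 7 had the largest neuron marker sum, 3154 TPM, and the lowest DNAJC5 and DNAJC6, at 0.384 and 2.59 TPM. Uninjured control library 1 held the highest level of 45.9% of all tested genes, so a peak there is common. The part of neuron content in these levels was not tested.

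The heat shock factors were low. HSF1 was at 5.31, 2.47 and 3.88 TPM in uninjured control, against 0.720, 1.34 and 1.11 TPM in uninjured inhibitor and fell on the deposited scale (−1.46, SE 0.40, adjusted p = 0.0112, and −0.72 after scaling, adjusted p = 0.0893). HSF2 was at 20.9, 16.4 and 12.7 TPM and at 11.9, 9.61 and 9.73 TPM (−0.63, SE 0.25, adjusted p = 0.0451, and 0.28 after scaling). HSF4, known from the lens, stayed under 2 TPM. HSPH1, an exchange factor for HSP70 that HSF1 induces in mammals, was at 3.40, 3.79 and 15.2 TPM and at 5.32, 2.98 and 5.40 TPM (−0.38, SE 0.54, adjusted p = 0.558, and 0.46 after scaling).

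The inducible HSP70 genes were low in uninjured inhibitor and spread widely in 4 dpi inhibitor. HSPA1A was at 12.2, 6.93 and 56.8 TPM in uninjured control libraries 1, 5 and S2 and at 16.1, 3.68 and 64.5 TPM in 4 dpi control libraries 1, 5 and 6. In uninjured inhibitor it was listed at 0, 0.720 and 0.307 TPM. At 4 dpi with the inhibitor it was at 6.81, 263 and 497 TPM in libraries 5, 6 and 7, so that 2 libraries lay above every other library of the series and the remaining one among the controls. The fall with the inhibitor in uninjured cord passed on both scales (−4.47, SE 1.37, adjusted p = 0.0169, and −3.90 after scaling, adjusted p = 0.0485). It was called in 14 of 17 alternatives, with adjusted p values of 0.00779 to 0.0914, and was lost with quantile normalization and without uninjured control library S2 or uninjured inhibitor library 5. Since 1 library is listed at 0, the size of this fold change depends on the pseudocount.

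HSPA1L, HSPA6, HSPA1B and DNAJB1 had the same order in 4 dpi inhibitor libraries 5, 6 and 7. HSPA1L was at 2.12, 92.2 and 162 TPM, HSPA6 at 0.561, 43.0 and 87.0 TPM, HSPA1B at 6.87, 62.4 and 104 TPM and DNAJB1 at 7.72, 18.7 and 28.0 TPM. Among the 14764 tested genes the spread of these 3 libraries on the log2 scale was the largest of all for HSPA6, with an s.d. of 3.42, followed closely by HSPA1A at 3.28 and HSPA1L at 3.23, where the median gene had 0.233. HSPA1B stood at the 99.9th and DNAJB1 at the 96.6th percentile. HSPH1 at 2.27, 4.58 and 3.56 TPM and HSP90AA1 at 12.1, 14.6 and 27.8 TPM did not share so wide a split. HSPA1A, HSPA1B, HSPA1L and HSPA6 are names of related human HSP70 genes, and reads may have been divided among them, which was not tested. In the 6 libraries with at least 10 TPM of HSPA1A, HSPA1L stood to it at a ratio of 0.243 to 0.525 and HSPA6 at 0.164 to 0.239. Where HSPA1A was above 0 but under 10 TPM, these ratios ran from 0.311 to 2.55 and from 0.0823 to 1.51. Whether these 3 names are separate measurements was not tested.

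Together these 4 HSP70 names made up 33.7% and 53.9% of all HSP70 transcripts in 4 dpi inhibitor libraries 6 and 7, against 2.30% in library 5, 1.75% to 2.97% in uninjured inhibitor and 3.35% to 15.7% in the 6 control libraries. The other 10 HSP70 genes summed to 694 to 905 TPM in 4 dpi inhibitor and to 609 to 702 TPM in uninjured inhibitor. HSPA1B differed from HSPA1A in control. It reached 165 and 164 TPM in uninjured libraries 1 and S2 against 27.5 TPM in library 5, while its 4 dpi control values were 24.7 to 48.9 TPM. In uninjured inhibitor it was at 7.67, 12.7 and 19.9 TPM, below every control library, and was called lower on the deposited scale only.

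**Figure D5:**
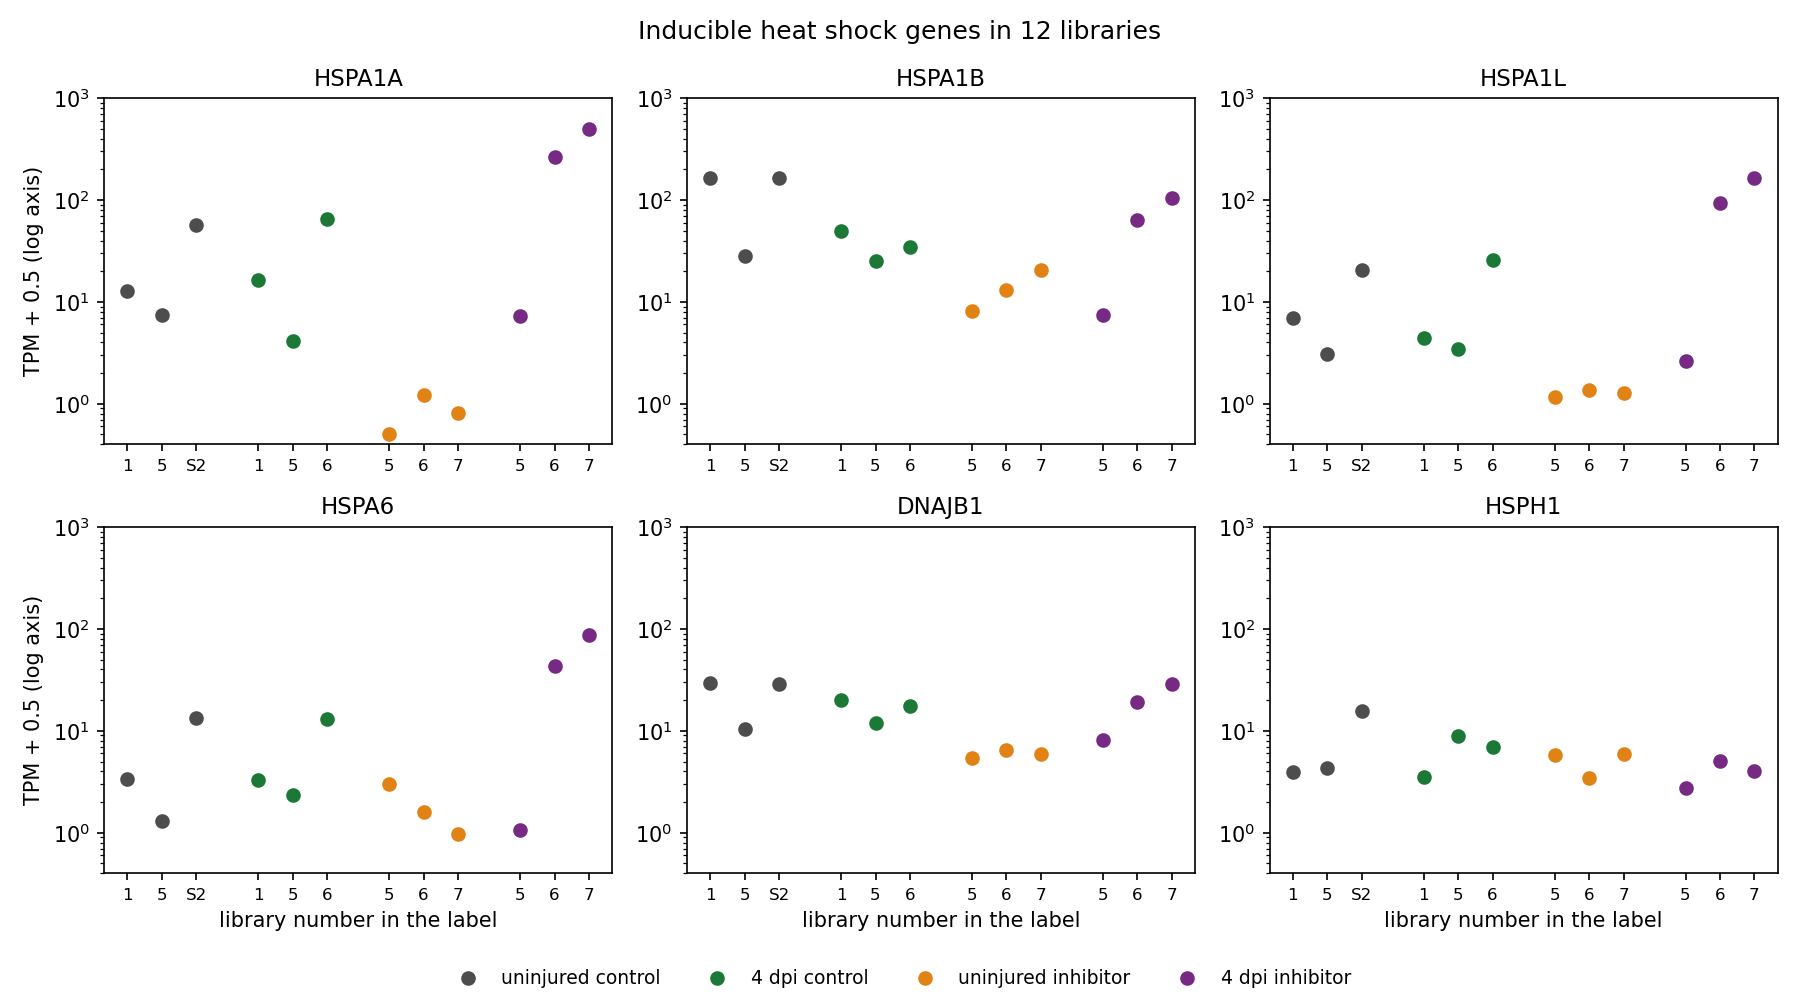
TPM + 0.5 of HSPA1A, HSPA1B, HSPA1L, HSPA6, DNAJB1 and HSPH1 in the 12 libraries on a log axis, a point per library. In 4 dpi inhibitor HSPA1A was at 6.81 TPM in library 5 and at 263 and 497 TPM in libraries 6 and 7, and in uninjured inhibitor it was at 0 to 0.720 TPM.

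Injury under the inhibitor called 1 of 76 members higher, or 1.32% against 0.406% of all tested genes, and 0 lower, against 0.0271%. The member was HSPA1A (log2 fold change 6.96, SE 1.37, adjusted p = 0.0497, and 7.04 after scaling, adjusted p = 0.0370, where 0.765% of genes were called higher). All 3 injured libraries lay above all 3 uninjured ones, but libraries 6 and 7 carried the size. The call was lost without either of them and without uninjured inhibitor library 5 or 7, it stood in 8 of 17 alternatives, and its adjusted p ran from 0.00732 to 0.244. Without 4 dpi inhibitor library 5, the low one, HSPA1A and HSPA1L were both called, at 8.84 and 6.60. These were 2 of 76 members, where 18 of 14719 tested genes were higher. HSPA1L had 0.662 to 0.861 TPM without injury and 2.12 to 162 TPM with it (4.75, SE 1.27, adjusted p = 0.110). HSPA13, an ER-associated HSP70, was at 6.71 to 10.9 TPM and at 15.2, 17.0 and 17.6 TPM (0.94, SE 0.29, adjusted p = 0.140), with no overlap and little spread. An unadjusted p under 0.05 was found for 9 members, or 11.8%, against 17.6% of all tested genes. Of the 76 members 16, or 21.1%, lay above every uninjured inhibitor library, against 28.7% of all genes, and 6, or 7.89%, below, against 9.1%.

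With the inhibitor at 4 dpi against 4 dpi control 1 of 76 members fell, 1.32% against 1.67% of all tested genes, and 0 rose, against 0.21%. It was HSP90AB1, at 1114, 427 and 612 TPM in 4 dpi control and at 241, 242 and 202 TPM in 4 dpi inhibitor (−1.54, SE 0.34, adjusted p = 0.0480). After scaling its value was −0.90 (adjusted p = 0.107), and 0 of 76 members passed where 0.0745% of all genes did. The groups did not overlap, and the mean dropped 3.14-fold. HSPA8 at 324, 177 and 242 TPM and 94.6, 118 and 100 TPM (−1.21, SE 0.29, adjusted p = 0.0510) and DNAJB12 at 114, 58.7 and 72.5 TPM and 28.4, 49.3 and 26.9 TPM (−1.22, SE 0.30, adjusted p = 0.0521) missed the threshold narrowly. The HSP90AB1 call stood in 8 of 17 alternatives, with adjusted p values of 0.0337 to 0.221. With no variance trend, or without 4 dpi control library 1 or 4 dpi inhibitor library 5 or 7, 0 of all tested genes passed. Without 4 dpi control library 6, 1 gene was higher and 0 were lower. The loss of the HSP90AB1 call in these alternatives was shared by the whole comparison. An unadjusted p under 0.05 was found for 27 members, or 35.5%, against 32.4% of all tested genes. HSPE1 was at 323, 556 and 563 TPM and at 1001, 740 and 841 TPM, with all inhibitor libraries above all control libraries. In all 8 members, or 10.5%, lay above every control library at 4 dpi, against 6.62% of all genes, and 30, or 39.5%, below, against 46.8%. Without injury 14 members, or 18.4%, lay above, against 8.49%, and 29, or 38.2%, below, against 48.9%.

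The effect of the inhibitor was not shown to differ between injured and uninjured cord for any member. In the interaction 0 of 76 members passed in limma, against 0.0271% of all genes, and 6, or 7.89%, had an unadjusted p under 0.05, against 6.7% of all genes. They were HSPA1A, HSPA1B, HSPA1L, HSPA2, DNAJB1 and DNAJC5. The value for HSPA1A was 7.05 (SE 1.93, adjusted p = 0.658), for HSPA1L 4.80 (SE 1.80) and for DNAJB1 1.83 (SE 0.67), each with the same adjusted p.

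Partners of these chaperones outside the name rule were counted in uninjured cord, where 3.32% of all genes rose and 42% fell on the deposited scale and 15.1% were higher and 13.2% lower after scaling. A list of 10 genes held prefoldin, which brings clients to CCT, phosducin-like proteins and the CCT subunit TCP1. Of these 10 genes 2 rose, PFDN1 and PFDN4, and 1 fell, PDCL, and after scaling 9 were higher and 1 lower. TCP1 had a fold change of 0.27 and was called higher after scaling at 1.22. Of 24 HSP70 and HSP90 co-chaperones 2 (8.33%) rose and 7 (29.2%) fell, and after scaling 9 were higher and 3 lower. HSBP1, which binds HSF1, rose (1.27, adjusted p = 0.00180), and BAG2 (−3.09, adjusted p = 0.00190) and the myosin chaperone UNC45A (−3.17, adjusted p = 0.00329) fell, all 3 on both scales. Of 11 other mitochondrial chaperones and proteases 0 rose and 5 fell, and after scaling 2 were higher, GRPEL1, the exchange factor of HSPA9, and HSCB. Of 21 ER folding and unfolded protein response genes 1 rose, MANF (1.17, adjusted p = 0.0153), and 9 fell, and after scaling 2 were higher and 1, ATF6, lower. In injury of control cords 0 of these 66 genes passed, with 8 (12.1%) at an unadjusted p under 0.05, against 10.5% of all genes.

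The genes most like a member over the 12 libraries were ranked by Pearson r of log2(TPM + 0.5), as a description in which libraries and groups are shared. For HSPE1 they were TIMM9, a carrier of mitochondrial import, at r = 0.99, ACP1, MAD2L1, C12orf65 and GTF2H5 at 0.98 to 0.99. For HSPA5 they were MCM10 at 0.92, DCK, UHRF1, EXOSC6 and TCAF2 at 0.89 to 0.91. For HSPA1A, a gene chosen here after its values were seen, HSPA1L came first at 0.97, then SELP, IGLL5, HSPA6 and GADD45B at 0.87 to 0.89, and DNAJB1 was among the first 10 at 0.84 with DUSP1 and CYR61.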

How the data were processed

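RNA of axolotl spinal cord was sequenced by the authors in 12 libraries, 4 groups of 3. The deposited values are TPM per gene, made by the authors, in whose processing notes RSEM 1.1.6, Bowtie 0.12.1 and DESeq2 1.16.1 are named without their roles. For the transcriptome, its build and the joining to human names: not given in the sources used here. TPM keeps no read depth, so no count model was used. Dates stood in place of 25 symbols, which were recovered through their identifiers. For 64 members the symbol also occurs in the RefSeq axolotl table of assembly UKY_AmexF1_1, used for names only.

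The 14764 genes that reached 0.5 TPM in 3 libraries were fitted as log2(TPM + 0.5) in limma 3.58.1 under R 4.3.3, all 12 libraries in 1 model of group means with a variance trend. Fold changes on this scale understate those of low genes. P-values were adjusted by Benjamini-Hochberg over all tested genes in each comparison. A call needed an adjusted p below 0.05 together with a log2 fold change beyond 1 in either direction, and the interaction used the adjusted p alone. Scaling used the median of ratios to the geometric mean of 13002 genes above 0 in all libraries. The code was tested on simulated data.

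Members, families and lists were chosen with earlier results of these data known. Full statistics were given for 13 set members (HSP90AA1, HSP90AB1, HSP90B1, HSPA5, HSPA8, HSPA9, HSPA1A, HSPH1, HSPD1, HSPE1, HSPB1, HSF1 and HSF2), for up to 6 called members of each comparison with the smallest adjusted p (otherwise the first 3) at 5 TPM or more in the higher group, for the highest member of each family, and for up to 6 members whose call changed with scaling. Other genes named with a fold change were picked from their lists after their values were seen. These were the members DNAJC15 and DNAJC19 and, outside the members, TCP1 and the partner genes. The fits were repeated with other pseudocounts (1 and 0.1), other filters (none and 2 TPM), scaling, quantile normalization, only the libraries compared, the replicate number as a block, no trend, no fold threshold and each library left out. Figures were drawn in Python 3.11.15 with matplotlib 3.10.9. No sequences were printed, since none came with these data, and the other assays of the study were not analysed here.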

Additional observations from a re-analysis of the deposited data

How the results depend on the processing

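Reads behind each TPM are not known, so precision rests on 3 pooled libraries a group, and low genes such as HSPA2 and HSF4 cannot be resolved. Over 39 results for named members the alternatives gave 750 values, of which 588 kept direction and side of the threshold, 59 passed where they had not, 65 no longer passed and 38 turned direction. These values include those of the further alternatives, given last, that were chosen after seeing the data. The cause of a turn was not tested.

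For the inhibitor without injury 2 of 76 members were higher and 20 lower, where 490 and 6201 of 14764 tested genes were. A pseudocount of 1 gave 1 higher member, where 464 genes were higher. Median-of-ratios scaling gave 20 and 4 members, where 2222 and 1947 genes passed. Quantile normalization gave 11 and 5 members, where 1722 and 1141 genes passed. No fold threshold gave 11 higher members, where 1013 genes were higher. Single libraries left out gave 1 to 4 higher and 14 to 25 lower members. Of all genes 417 to 598 were higher and 4324 to 7104 lower there. For the inhibitor at 4 dpi 1 member was lower, where 246 of all genes were. The count became 0 with no filter, where 91 genes were lower. It was also 0 with scaling, with quantile normalization and with no variance trend, where 0 genes were lower. A filter of 2 TPM gave 3, where 412 of 13133 genes were lower. Only the libraries compared gave 8, where 1133 genes were lower. Single libraries left out gave 0 to 6, where 0 to 1018 genes were lower. For injury under the inhibitor 1 member was higher, where 60 of all genes were. The count became 0 with a pseudocount of 1, no filter, quantile normalization, only the libraries compared or no trend. Of all genes 56, 45, 36, 458 and 69 were higher in these, in that order. Single libraries left out gave 0 to 2, where 7 to 433 genes were higher. For injury in control single libraries left out gave 0 to 2 higher members, where 78 to 264 of all genes were higher. The interaction gave 0 in each alternative it was run under, which leaves out the fits of only the libraries compared and with no fold threshold.

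The replicate numbers were not taken to pair the samples. Deviations of libraries with the same number correlated at −0.285 to 0.274 for numbers 5, 6 and 7. The only pair of number 1, uninjured control with 4 dpi control, was at 0.506. Both libraries of that pair also had the largest scaling factors, 1.80 and 1.69, against at most 1.23 in every other library. Whether they shared a batch was not tested. Numbers 1 and S2 occurred only in control and 7 only with the inhibitor, so number and inhibitor are partly confounded. With the replicate number as a block, injury in control gave 2 higher and 1 lower members, where 407 and 521 of all genes were. The inhibitor at 4 dpi gave 5 lower, where 412 genes were. Injury under the inhibitor gave 4 higher and 1 lower, where 1255 and 259 genes were. With the block and scaling injury in control gave 2 and 1 members, where 412 and 238 genes passed. The inhibitor at 4 dpi gave 1 higher (HSPE1) and 0 lower, where 199 and 29 genes passed. Injury under the inhibitor gave 3 and 3, where 695 and 531 genes passed. The inhibitor without injury gave 15 and 2, where 1467 and 518 genes passed.

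Log2 fold changes of the inhibitor without injury that turned direction were as follows. With scaling HSP90AA1 was at 0.37, HSPA5 at 0.61, HSPH1 at 0.46, HSPB1 at 0.54, HSF2 at 0.28, DNAJA2 at 0.68 and HSPA4 at 0.15. With quantile normalization HSP90AA1 was at 0.41, HSPH1 at 0.81 and HSF2 at 0.40. With the block HSPA5 was at 0.90, HSPD1 at −0.033 and HSPB1 at 0.075. With block and scaling HSP90AA1 was at 0.72, HSP90B1 at 0.42, HSPA5 at 1.73, HSPH1 at 0.56, HSPB1 at 0.90, HSF2 at 0.17 and DNAJA2 at 0.40. Among these turned values only that of HSPA5 passed (adjusted p = 0.0495 in limma). With single libraries left out HSPD1 ran from −0.18 to 0.34, HSPA5 from −1.21 to 0.48, HSPH1 from −0.74 to 0.27 and HSPB1 from −0.97 to 0.25.

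Further alternatives were chosen after seeing the data. Without uninjured control libraries 1 and S2, library 5 alone is left, has the lowest HSPA5 of the series and is assumed to vary like the other groups. For the inhibitor without injury HSP90AA1 was then at 0.41, HSPA5 at 1.43 and HSPH1 at 0.20. With scaling and without library S2 the inhibitor without injury gave 22 higher and 5 lower members, where 2330 and 2264 of 14687 genes passed. In that fit HSP90AA1 was at 0.87, HSP90B1 at 0.34, HSPA5 at 1.56, HSPA9 at 0.0031 and HSPH1 at 1.22. HSPB1 was at 1.33, HSF2 at 0.24, DNAJA2 at 0.66 and HSPA4 at 0.046. Among the turned values of that fit only that of HSPA5 passed (adjusted p = 0.0162 in limma). Leaving out 4 dpi inhibitor libraries 6 and 7 leaves 1 library, assumed to vary like the other groups, so its calls cannot judge the members. The median member was then at −0.58 for the inhibitor at 4 dpi, against −0.66 for all genes. For injury under the inhibitor it was at 0.031, against 0.23 for all genes.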
